A study of Mus musculus with 16 samples.

Results

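The response of the adult mouse uterus to dexamethasone, a synthetic glucocorticoid, was taken as the mean of the differences between dexamethasone and vehicle in mice with and without neonatal genistein. All 16 of the study's 16 arrays enter this mean, 8 from mice given dexamethasone and 8 from mice given vehicle, with 4 arrays for each pairing of neonatal and adult treatment. On days 1 to 5 after birth the pups received 50 mg/kg genistein, an estrogenic isoflavone of soy, or the carrier alone (20 µl). The design text gives this carrier as corn oil and the sample labels as saline, so mice without genistein are called neonatal controls. Mice of all 4 groups lost their adrenals and ovaries at the age of 6 weeks, so the main sources of corticosterone, estradiol and progesterone were removed in every group. At 8 weeks they were injected intraperitoneally with 1 mg/kg dexamethasone or with 100 µl of the saline vehicle, and the whole uterus was taken 4 h later. The response is that of 1 dose and 1 time in a mixed tissue. Strain, and the number of animals behind an array, are not given in the sources used here, so p-values measure the spread between arrays, which may in part be technical.

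Glucocorticoids act through the glucocorticoid receptor, a hormone-bound transcription factor that raises transcription at palindromic DNA elements and lowers inflammatory transcription driven by NF-kappaB, AP-1 and interferon-regulated factors. Textbook direct targets include the cochaperone Fkbp5, the leucine zipper gene Tsc22d3, the clock gene Per1 and the kinase gene Sgk1. In the uterus, glucocorticoids oppose the growth and inflammation that estrogen promotes.

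Values are log2 of the processed spot signal minus the 75th percentile of the array, called scaled log2 signal, so that 0 is the level of that percentile. A change is a difference of such values, a log2 fold change, given with its standard error (SE) from limma, and a gene was called when its Benjamini-Hochberg adjusted p was below 0.05. The 75th percentile lay between 948 and 2719 on the 16 arrays, with 68.9 to 81.3% of spots above background. The 4 dexamethasone arrays of neonatal controls lay apart on the first principal component (29.7% of variance), at 65.0 to 102, above the other 12. Genistein vehicle arrays 3 and 4 stood apart from the other 2 of their group on the second, at 73.1 and 49.7 against -42.5 and -52.2. Defining markers of uterine epithelium, stroma and smooth muscle were present: 16 of 18, 14 of 15 and 14 of 15 were well above background on all 16 arrays.

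Dexamethasone changed 5666 of 24651 genes and unnamed targets on average (23%), with 2374 higher (9.63%) and 3292 lower (13.4%). A core of 856 (3.47%) was called in the same direction in each arm by itself, 400 higher (1.62%) and 456 lower (1.85%). Of these, 166 rose and 198 fell by more than 2-fold in both arms. The arms have no array in common. The core was 15.1% of the 5669 genes called in neonatal controls (23%) and 65.7% of the 1303 called after genistein (5.29%), and 2 genes were called in opposite directions. Of the remaining averaged calls, 3222 were called in the control arm alone, 393 in the genistein arm alone and 1195 in neither arm, so most averaged calls did not pass in each arm. The changes of the arms correlated at r = 0.401 (Spearman 0.376) across the 24651 genes, which are not independent replicates.

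**Figure D1:**
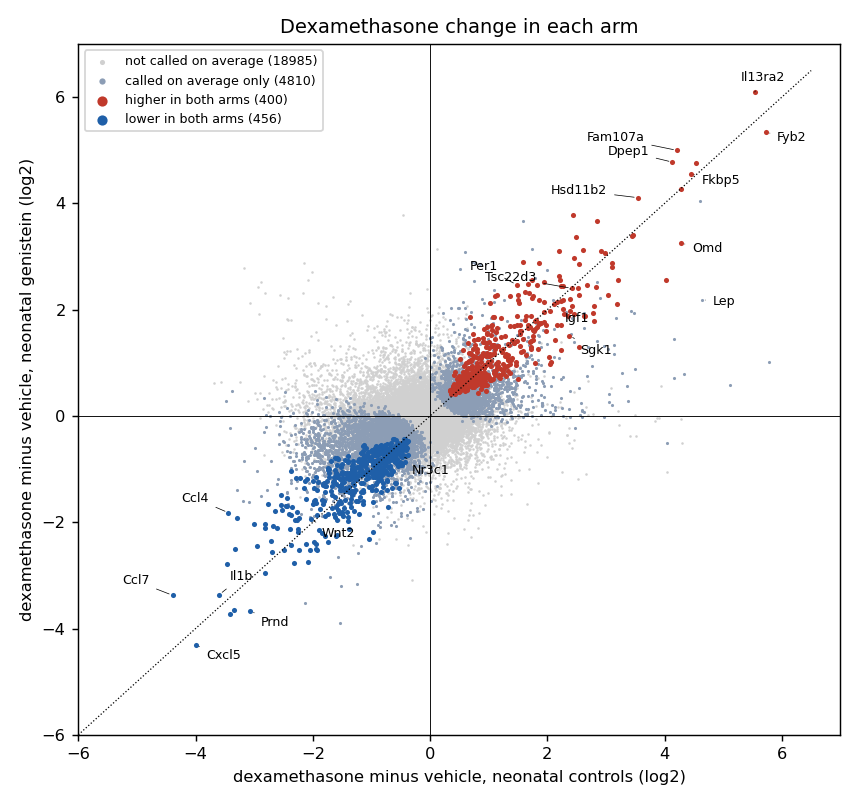
Each point is 1 of 24651 genes or unnamed targets, with its log2 change in neonatal controls (horizontal) and after neonatal genistein (vertical), 4 against 4 arrays each; the dotted line marks equal change. The 400 genes higher and 456 lower in both arms (red, blue) lie where both changes share a sign, as the rule that chose them requires. Il13ra2 and Fyb2 are at the top right and Cxcl5 at the lower left.

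The 8 dexamethasone arrays and the 8 vehicle arrays did not overlap for 922 genes (3.74%), of which 918 were called on average and 635 were in the core. No gene passed the test for a difference between the arms (limma interaction term, smallest adjusted p = 0.162), while 3830 had an unadjusted p below 0.05, 69 of them in the core. With array weights 96 genes passed it, 60 of them among those called on average. In the core, which requires a call in each arm, the change was larger in controls for 428 of 856 genes. Among the 5666 averaged calls the control change was larger for 4077. It was more than 2 times the genistein change for 2078 of them, and the reverse held for 422. The median over all genes was -0.09, and with arrays scaled to their median it was 0.04. Under that scaling 63.7% of averaged calls were higher, against 41.9%, so the balance of rises and falls depends on the scaling. Among dim genes falls outnumbered rises: of the dimmest of 5 equal classes of mean signal 129 rose and 541 fell, and of the brightest 675 rose and 504 fell. Slides 3 and 4 each held 1 array of every group. With slide as a block 4964 genes were called on average and 556 in both arms. On these 2 slides alone, with 3 residual degrees of freedom, 15 were called on average and 0 in both arms, among them Igf1, Fyb2, Dpep1, Fam107a, Rhob, Errfi1, Omd and Lao1 as rises and Spon2 as a fall.

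The receptor gene itself was lower and its inducible cochaperone much higher. Nr3c1, which encodes the glucocorticoid receptor, lay at 1.62 to 2.12 (median 1.85) on the 8 vehicle arrays and at 1.02 to 1.58 (median 1.30) on the 8 dexamethasone arrays. The groups did not overlap, and the average change was -0.62 (SE 0.09, adjusted p = 0.000344). Of the other Nr3c1 probes, 2 gave -0.63 and -0.76, both called, and the dimmest gave -0.22, which did not pass. Fkbp5, whose protein lowers the receptor's affinity for hormone, ran -4.50 to -2.56 (median -3.95) under vehicle and -0.05 to 1.45 (median 0.78) under dexamethasone, with a wide gap between the groups. It rose by 4.50 (SE 0.27, 22.7-fold, adjusted p = 1.58e-07), by 5.46 and 4.12 within slides 3 and 4. Of the 25 measured genes for the receptor, its paralogue, chaperones and cofactors, 2 rose and 3 fell (20% called, against 23% of all genes). Hspa4, a chaperone gene, was the other rise at 0.76. The mineralocorticoid receptor gene Nr3c2 fell by 1.07 (SE 0.33, -0.45 under normexp background correction) and the corepressor gene Ncor1 by 0.45. In 13 of 34 alternatives Nr3c2 no longer passed.

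Known glucocorticoid-induced genes rose together in both arms. Of a list of 44, 40 were measured: 28 went up and 2 went down on average, the other 10 missed the threshold, and 23 were called higher in each arm by itself (57.5%, against 3.47% of all genes called in both arms). The list's median change was 1.42, against -0.09 over all genes, and within slides 3 and 4 it was 1.36 and 1.43, or 1.48 with slide as a block. Tsc22d3, whose leucine zipper protein restrains NF-kappaB and AP-1, lay at 2.15 to 3.05 (median 2.75) under vehicle and at 4.71 to 5.54 (median 4.98) under dexamethasone, and rose by 2.41 (SE 0.15, 5.31-fold). Dusp1, a phosphatase that switches off MAP kinases, lay at -0.24 to 0.34 (median -0.02) and at 1.47 to 2.60 (median 2.40), and rose by 2.18 (SE 0.14). Neither gene's groups overlapped, and the array values of both are in the plot of 12 genes by group. Ddit4, an inhibitor of mTORC1, rose by 2.22 (SE 0.17) and Klf9, a repressor of the Krüppel-like family, by 1.48 (SE 0.12). Fam107a, an actin-binding stress gene, and Errfi1, an inhibitor of the EGF receptor, rose by 4.60 and 3.00 (SE 0.23 and 0.14). The metallothionein gene Mt1 rose by 1.28 (SE 0.23) and the C/EBP factor gene Cebpd by 1.83 (SE 0.14). The members that went the other way were Gadd45a, a growth arrest gene, at -0.56 and Thbs1, an inhibitor of vessel growth, at -0.84, each called on average but not in both arms. The Hif3a rise of 2.66 is uncertain, since its other probes gave 1.52 and -1.14.

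Sgk1 and Per1 are direct targets that were called in both arms with unequal sizes. Sgk1, a kinase that promotes sodium uptake, lay at 0.73 to 1.77 (median 1.32) on vehicle arrays and 2.56 to 3.69 (median 3.26) on dexamethasone arrays, without overlap, and changed by 2.38 in controls and 1.51 after genistein. Per1 lay at 0.39 to 1.75 (median 0.81) and 2.37 to 3.28 (median 2.89), also without overlap, and changed by 1.47 and 2.47. The differences between the arms did not pass (interaction adjusted p = 0.219 for Sgk1 and 0.194 for Per1), and the average rises were 1.94 and 1.97 (SE 0.15 and 0.15).

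The receptor's DNA element was looked for in RefSeq promoters (build GRCm38.p6, 250 bases before to 50 after each start), since the shared rises include known direct targets. Of the 338 named genes higher in both arms 280 had a promoter in the table, and of the 398 lower 297 did. The full palindrome, searched on both strands as AGAACA and TGTTC with any 3 bases between, was in 16 of 32851 promoters (0.0487%), in 5 of 16469 of measured genes (0.0304%), in 1 of 368 promoters of genes higher in both arms (0.272%) and in 0 of 382 of genes lower in both. The 1 was that of Sgk1. A looser form, ACA, any 3 bases, TGT, any base and C on both strands, overlaps the full one where its letters agree and was in 3.11% of all promoters and 2.40% of the 16469 promoters of measured genes, in 4.35% of those of genes higher and in 2.36% of those of genes lower in both arms. Among promoters of genes that moved by more than 2-fold in both arms it was in 14 of 147 for rises (9.52%) and in 4 of 150 for falls (2.67%). These shares are descriptions with no test, and distant elements lie outside the window. The 250 bases before the start are shown for Sgk1 (chr10:21993640-21993889, plus strand), where the full palindrome starts 189 bases before the start, and for 2 of the steepest rises with the looser form, Fam107a (chr14:8309778-8310027, minus strand) and Map3k6 (chr4:133240568-133240817, plus strand). Capitals mark the matched letters on either strand.
Sgk1: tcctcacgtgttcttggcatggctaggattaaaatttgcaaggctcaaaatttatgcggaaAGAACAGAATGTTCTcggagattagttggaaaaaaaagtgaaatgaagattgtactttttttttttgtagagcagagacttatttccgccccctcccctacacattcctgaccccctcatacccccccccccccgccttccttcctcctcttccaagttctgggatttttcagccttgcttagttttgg
Fam107a: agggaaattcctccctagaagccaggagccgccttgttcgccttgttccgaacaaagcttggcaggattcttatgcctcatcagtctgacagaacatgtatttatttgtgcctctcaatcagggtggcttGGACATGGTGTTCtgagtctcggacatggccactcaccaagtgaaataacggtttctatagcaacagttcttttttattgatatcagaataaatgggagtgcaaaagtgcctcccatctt
Map3k6: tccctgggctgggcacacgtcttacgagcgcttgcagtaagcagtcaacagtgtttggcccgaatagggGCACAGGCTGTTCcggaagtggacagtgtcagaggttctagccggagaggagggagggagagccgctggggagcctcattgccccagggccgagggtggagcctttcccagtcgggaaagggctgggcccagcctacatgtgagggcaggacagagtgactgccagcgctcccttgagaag

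**Figure D2:**
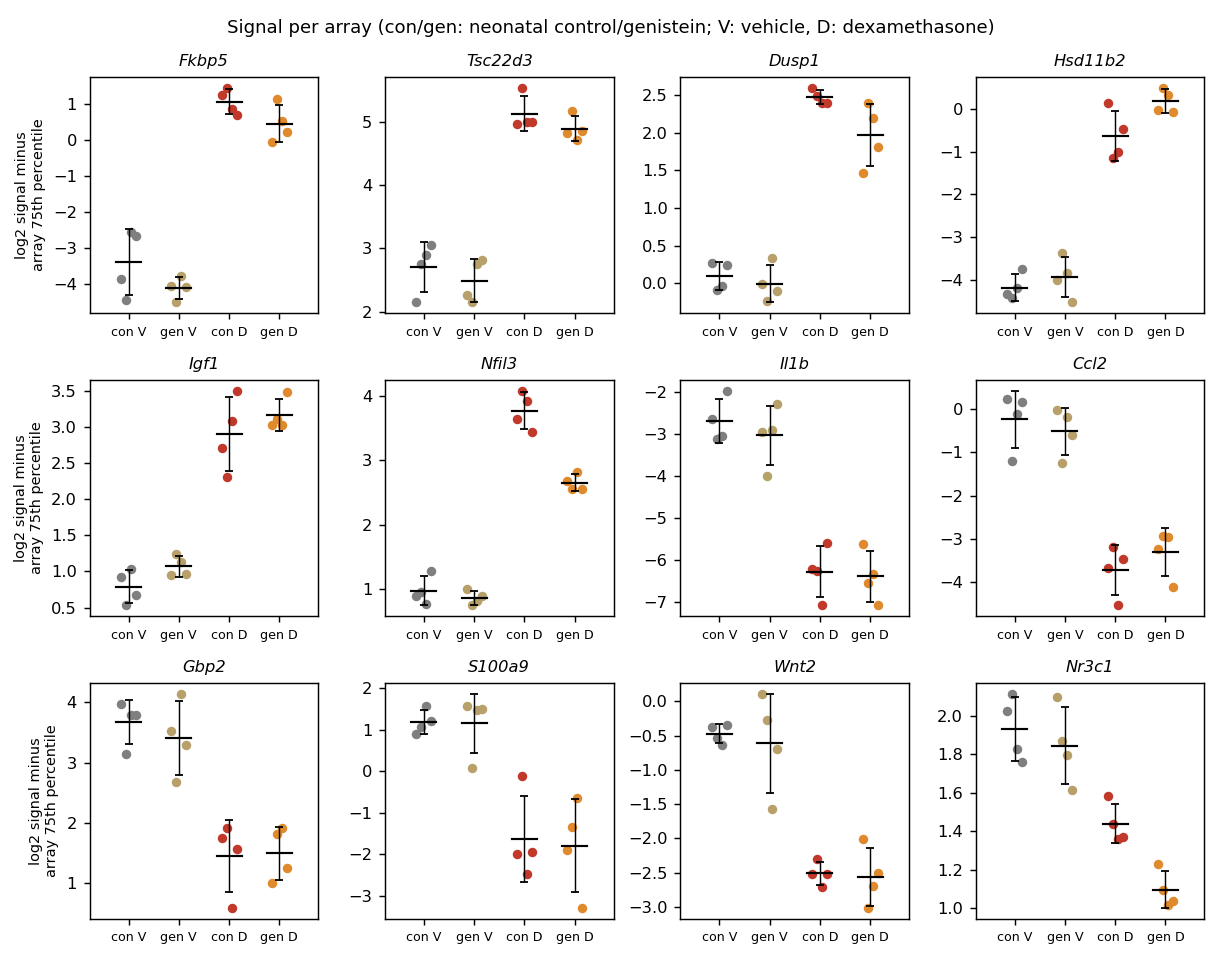
Scaled log2 signal of 12 genes on each of the 16 arrays, in 4 groups of 4 (con and gen, neonatal control and genistein; V and D, vehicle and dexamethasone); horizontal lines are means and whiskers 1 SD. For each gene the points of both dexamethasone groups lie on one side of all vehicle points.

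The steepest rises common to both arms included genes outside the glucocorticoid-induced list. Il13ra2, a decoy receptor that binds interleukin 13, lay at -6.94 to -4.63 (median -5.18) on vehicle arrays and at -0.41 to 0.89 (median 0.23) on dexamethasone arrays, and rose by 5.82 (SE 0.34, 56.4-fold, adjusted p = 1.35e-07). Fyb2, an adaptor gene of immune receptor signalling, lay at -4.65 to -3.11 (median -3.97) and at 1.10 to 2.27 (median 1.49), and rose by 5.54 (SE 0.20, 46.4-fold). For both genes every dexamethasone array lay above every vehicle array by a wide margin, and both were well above background on all 16 arrays. Within slides 3 and 4 Il13ra2 changed by 6.70 and 4.52 and Fyb2 by 6.11 and 5.48. Dpep1, a membrane dipeptidase, rose by 4.46 (SE 0.15), with vehicle arrays at -4.50 to -3.44 (median -4.03) and dexamethasone arrays at -0.39 to 1.00 (median 0.52). Lao1, an amino acid oxidase, rose by 4.65 (SE 0.22), Rhob, a small GTPase gene that is on the glucocorticoid-induced list, by 2.95 (SE 0.12) and Map3k6, a stress-activated kinase, by 2.86 (SE 0.13). None of these genes' groups overlapped, which was a condition of the rule that named them. With normexp background correction, run with quantile normalization, the rise of Lao1 was 3.05 and that of Fam107a 3.06, both still called. The added offset of normexp shrinks changes of dim genes by construction.

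The corticosteroid-inactivating enzyme gene rose, and sodium channel subunits moved in opposite directions. Hsd11b2, whose enzyme inactivates corticosterone, lay at -4.52 to -3.37 (median -4.10) under vehicle and at -1.16 to 0.49 (median -0.06) under dexamethasone. The groups were far apart, and a lack of overlap was a condition of the rule for the largest rises that named Hsd11b2. The rise was 3.83 (SE 0.21, 14.2-fold, adjusted p = 4.89e-08). The reactivating enzyme gene Hsd11b1 rose by 0.82 (SE 0.18), with vehicle arrays at -0.33 to 1.19 (median 0.44) and dexamethasone arrays at 0.94 to 1.56 (median 1.30), with overlap between the groups. It was called on average and not in both arms. Scnn1a, the alpha subunit of the epithelial sodium channel, rose by 1.32 (SE 0.21) in both arms, whereas the beta subunit gene Scnn1b fell by 1.13 (SE 0.18) on average. Of 26 measured ion and water transport genes 5 rose and 3 fell (30.8% called, against 23% of all genes). Of the rises, 4 were called in both arms. Among the falls, the water channel gene Aqp2 fell by 1.11 and Aqp9 by 1.39. Aqp9 was above background on 6 of 8 vehicle and 2 of 8 dexamethasone arrays, was no longer called under normexp (-0.23), and had 2 other probes at -0.95 and -0.14.

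Clock genes moved in both directions. Of 19 measured clock genes 7 rose and 2 fell (47.4% called), 5 rose in both arms, and the list's median was 0.01, a value whose sign changed under 6 of 34 alternatives. Nfil3, a repressor of D-box transcription, lay at 0.75 to 1.28 (median 0.89) on vehicle arrays and at 2.55 to 4.08 (median 3.13) on dexamethasone arrays, without overlap, and rose by 2.29 (SE 0.11, 4.91-fold). Ciart, a circadian repressor, ran -3.83 to -1.85 (median -3.38) and -1.96 to -0.05 (median -1.17), and rose by 2.05 (SE 0.24). The highest vehicle array of Ciart was above the lowest dexamethasone array, although it was called in both arms. Per2 rose by 1.05 (SE 0.14) by its brightest probe, while a dimmer probe gave -0.65 and did not pass, and the activator gene Clock rose by 0.56. Dbp, a D-box activator, fell by 0.99 (SE 0.14) and the clock repressor gene Nr1d1 by 1.14 (SE 0.20), both called in controls and on average but not after genistein.

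Fuel switch genes and the growth factor gene Igf1 rose, while nutrient and mTORC1 stress genes moved in both directions. Igf1, the uterine mediator of estrogen-driven growth, lay at 0.53 to 1.24 (median 0.95) under vehicle and at 2.31 to 3.51 (median 3.07) under dexamethasone, with no overlap. It rose by 2.11 (SE 0.15, 4.31-fold), by 2.12 in controls and 2.10 after genistein, and a second probe gave 2.18. Of the 20 measured insulin and IGF genes 3 rose and 3 fell (30% called, against 23% of all genes). With arrays scaled to their median 6 rose and 2 fell. The glucose transporter gene Slc2a1 rose by 0.99 and the kinase gene Akt2 fell by 0.70, and Pik3r1, called at 1.02, had 3 other probes between 0.02 and 0.16 that did not pass. Of 21 measured fuel switch and gluconeogenesis genes 10 rose and 2 fell (57.1% called), 6 of the rises in both arms, with a median of 0.69 (0.87 and 0.63 within slides 3 and 4). Tat, a tyrosine aminotransferase best known as a glucocorticoid target of liver, rose by 2.89 (SE 0.41) and Pdk4, which diverts pyruvate from oxidation, by 1.56 (SE 0.24). Glul, glutamine synthetase, rose by 1.14 (SE 0.11), and Cpt1a, the carnitine transferase of fat oxidation, fell by 0.56 (SE 0.12). Of 24 nutrient and mTORC1 stress genes 7 rose and 8 fell (62.5% called), or 9 and 4 with arrays scaled to their median. Klf15, a factor of amino acid breakdown, rose by 2.25 (SE 0.17) and Sesn1 by 1.04, while Sesn3 fell by 1.04 and Ddit4l by 1.47, all in both arms.

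Chemokines fell, and none of the measured members rose. Of 36 listed chemokines 33 were measured and 17 fell (51.5% called), 9 of them in both arms, with a median of -0.64 (-0.78 and -0.81 within slides 3 and 4, -0.67 with slide as a block). With arrays scaled to their median 14 fell and 1 rose. Ccl7, a monocyte attractant, lay at -1.83 to -0.36 (median -1.13) on vehicle arrays and at -6.36 to -3.92 (median -4.82) on dexamethasone arrays, and fell by 3.88 (SE 0.35, adjusted p = 5.72e-06). Ccl2, the main monocyte attractant, lay at -1.25 to 0.22 (median -0.16) and at -4.52 to -2.93 (median -3.35), and fell by 3.13 (SE 0.27, adjusted p = 4.53e-06). Neither had overlapping groups, a condition of the rule for the largest falls that named both. Ccl4, an attractant of monocytes and T cells, fell by 2.63 (SE 0.18) and Cxcl10, an interferon-induced attractant of T cells, by 2.51 (SE 0.37), with vehicle arrays at -0.25 to 1.44 (median 0.13) and dexamethasone arrays at -3.40 to -0.65 (median -2.12). Cxcl5, a neutrophil attractant, was well above background on all 8 vehicle arrays and on 1 of 8 dexamethasone arrays. Its fall was called (adjusted p = 9.87e-06). It was 9.27-fold with the dexamethasone group that had no array above background raised to the dimmest measurable signals. The other dexamethasone group kept readings below background, so 9.27-fold is not a lower bound. Within slides 3 and 4 Ccl7 changed by -2.73 and -5.19 and Ccl2 by -2.40 and -3.76. Background correction by normexp gave -2.41 for Ccl7 and -1.63 for Ccl4, and both stayed called.

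Inflammatory cytokines and mediators fell with the chemokines. Of 29 measured, 11 fell and none rose (37.9% called), 5 in both arms, with a median of -0.32 (-0.49 and -0.41 within slides 3 and 4). The median was -0.08 under normexp and -0.19 with arrays scaled to their median, with 9 falls and no rise under each. Il1b, interleukin 1 beta, lay at -4.00 to -1.97 (median -2.92) under vehicle and at -7.08 to -5.60 (median -6.29) under dexamethasone, and fell by 3.48 (SE 0.29, adjusted p = 2.91e-06). Tnf, tumour necrosis factor, lay at -4.89 to -3.82 (median -4.25) and at -6.59 to -4.90 (median -6.24), and fell by 1.55 (SE 0.20, adjusted p = 0.000151). The groups did not overlap for either gene, which for Il1b was a condition of the rule for the largest falls. Both are dim, and normexp gave -1.54 and -0.49, both still called. Csf2, the granulocyte-macrophage factor gene, was well above background on 5 of 8 vehicle and 0 of 8 dexamethasone arrays. Its fall was at least 1.52-fold (adjusted p = 4.69e-05). The adhesion gene Selp, P-selectin, fell by 1.14 in both arms and Icam1 by 1.06 on average.

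Inhibitors of inflammatory signalling moved in both directions. Of 28 measured, 6 rose and 10 fell (57.1% called), with 5 rises and 3 falls in both arms, and with arrays scaled to their median 6 rose and 6 fell. Beside Il13ra2, Tsc22d3 and Dusp1, the rises were the mRNA decay factor gene Zfp36 at 0.92 (SE 0.14), and the NF-kappaB inhibitor genes Nfkbia at 0.90 (SE 0.17) and Nfkbib at 0.44 (SE 0.09). Zfp36 lay at -0.41 to 0.25 (median -0.17) and 0.35 to 1.35 (median 0.88), and Nfkbia at 3.64 to 4.76 (median 4.32) and 4.76 to 5.58 (median 4.98), so that for each the highest vehicle array came close to the lowest dexamethasone array. The falls included other inhibitors. Il1rn, the interleukin 1 receptor antagonist, fell by 2.11 (SE 0.46, -0.90 under normexp) on average and not in both arms, Nfkbie by 1.02 (SE 0.13) and the interleukin 18 binding protein gene Il18bp by 0.87 (SE 0.16).

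Interferon-stimulated genes and the MHC class II pathway were lower. Of 32 measured interferon-stimulated genes 17 fell and none rose (53.1% called), 6 in both arms, with a median of -0.73, and -0.77 within each of slides 3 and 4. Gbp2, a guanylate-binding protein of cell-autonomous defence, lay at 2.68 to 4.15 (median 3.66) on vehicle arrays and at 0.58 to 1.91 (median 1.65) on dexamethasone arrays and fell by 2.07 (SE 0.24, adjusted p = 5.71e-05). Ifit3, an antiviral gene, lay at 1.52 to 3.34 (median 2.38) and -0.35 to 1.45 (median 0.40), and fell by 1.90 (SE 0.33). The groups of both genes were separate, that of Ifit3 narrowly. The signal transducer gene Stat2 fell by 0.80 on average, and Irf8, a myeloid interferon factor, by 0.77 in both arms. Of 11 measured genes of antigen presentation by MHC class II 9 fell and none rose (81.8% called), 5 in both arms, with a median of -0.89 (-0.73 and -1.18 within slides 3 and 4). Ciita, the master activator of these genes, lay at -2.44 to -1.97 (median -2.23) and at -4.81 to -3.19 (median -3.54), without overlap, and fell by 1.64 (SE 0.19, -0.997 under normexp). Among its targets H2-DMb1 fell by 1.12 (SE 0.10) and H2-Ab1 by 0.89 (SE 0.13) in both arms.

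The interferon-stimulated response element, searched on both strands as TTTC, any 2 bases and TTTC, was in 3.44% of all RefSeq promoters, in 3.15% of those of measured genes, in 22 of 382 of genes lower in both arms (5.76%) and in 6 of 368 of genes higher in both (1.63%). Among genes past 2-fold in both arms it was in 14 of 150 promoters of falls (9.33%) and in 3 of 147 of rises (2.04%). The kappaB form GGG, any 2 bases and TTTCC, which can overlap it, was in 1.63% of all promoters and 1.60% of those of measured genes. It was in 2.09% of those of genes lower and 1.09% of those of genes higher in both arms. Past 2-fold in both arms the kappaB form was in 3 of 150 promoters of falls (2%) and in 3 of 147 of rises (2.04%). The cAMP response element TGACGTCA was in 1.79% of all, 2.57% of those of measured genes, 0.262% of those of genes lower and 1.63% of those of genes higher. AP-1 (TGANTCA), E-box (CACGTG) and C/EBP (TTGCNNAA) forms were also searched, with N any base. AP-1 was in 6.01% of promoters of measured genes, 8.9% of genes lower and 7.07% of genes higher in both arms. Past 2-fold it was in 16 of 150 for falls (10.7%) and 18 of 147 for rises (12.2%). E-box shares past 2-fold were 8.67% for falls and 10.9% for rises, against 8.97% of measured genes. For C/EBP they were 14% and 10.9%, against 9.29%. A match describes letters in the window, not binding. The bases before the start are shown for 3 of the falls with the interferon element, in capitals: Ifit3 (chr19:34583279-34583528, plus strand), which holds it at 156 and 122 bases before the start, Gbp2 (chr3:142620413-142620662, plus strand) and Cxcl10 (chr5:92348890-92349139, minus strand), where it reads on the other strand.
Ifit3: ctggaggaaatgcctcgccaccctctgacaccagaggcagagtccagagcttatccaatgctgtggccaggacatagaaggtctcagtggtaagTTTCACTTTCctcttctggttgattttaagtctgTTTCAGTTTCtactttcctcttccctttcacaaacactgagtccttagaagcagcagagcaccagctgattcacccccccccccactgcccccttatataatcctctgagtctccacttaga
Gbp2: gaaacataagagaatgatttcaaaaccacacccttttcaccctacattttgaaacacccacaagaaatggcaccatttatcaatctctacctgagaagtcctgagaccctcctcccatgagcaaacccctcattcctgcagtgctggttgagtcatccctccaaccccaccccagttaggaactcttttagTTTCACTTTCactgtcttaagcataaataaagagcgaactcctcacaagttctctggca
Cxcl10: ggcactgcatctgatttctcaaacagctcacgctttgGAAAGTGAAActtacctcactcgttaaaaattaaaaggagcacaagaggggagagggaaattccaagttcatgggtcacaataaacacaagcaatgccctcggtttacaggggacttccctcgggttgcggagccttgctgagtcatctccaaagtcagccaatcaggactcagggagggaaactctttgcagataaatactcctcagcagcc

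**Figure D3:**
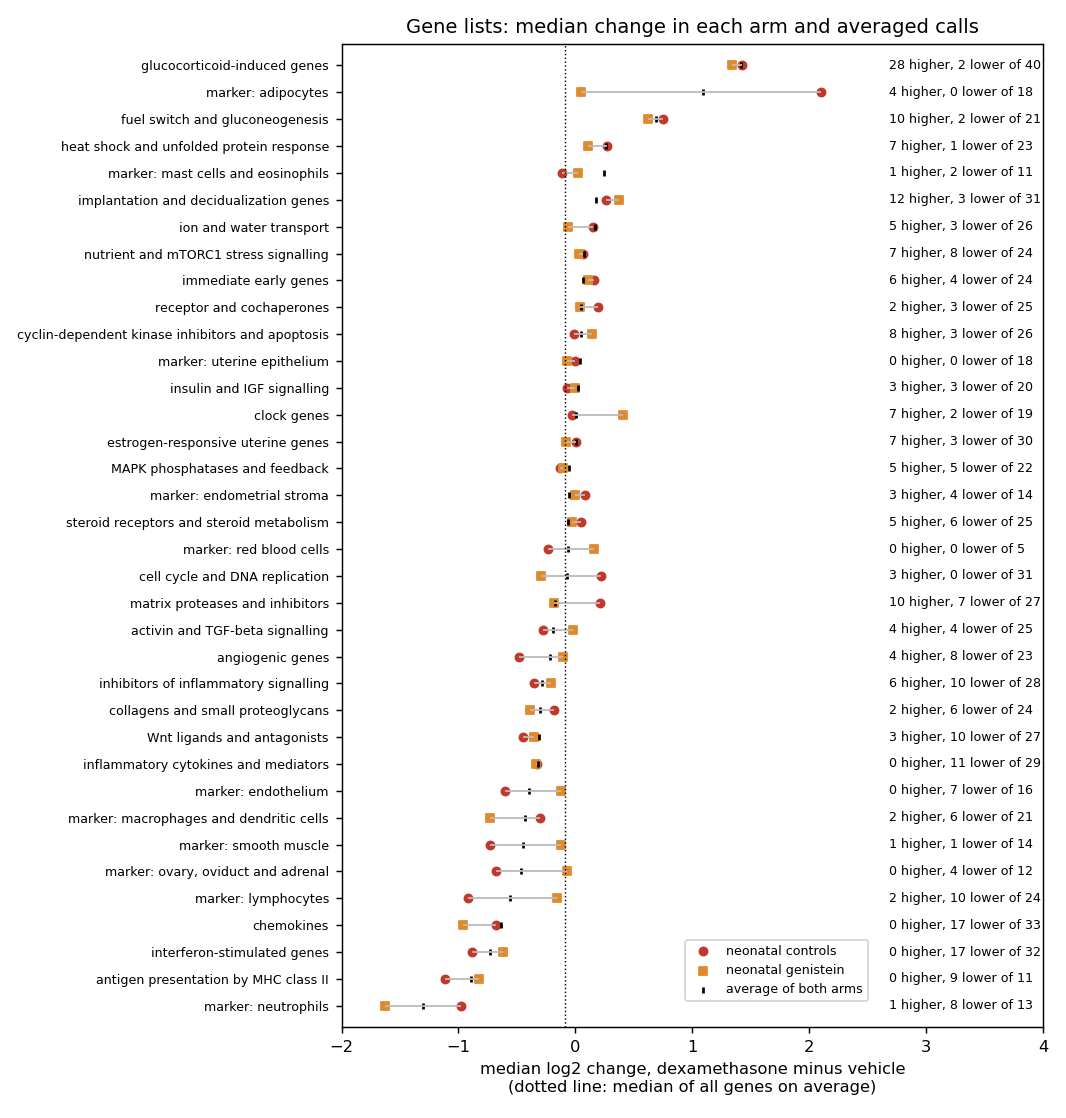
Median log2 change of each gene list in neonatal controls (circles), after neonatal genistein (squares) and on average (ticks), with the number of members called on average beside it; the dotted line is the median of all genes, -0.09. Glucocorticoid-induced genes lie at 1.43 in controls and 1.34 after genistein, while the adipocyte median is 2.10 in controls and 0.05 after genistein.

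Neutrophil markers fell in both arms and had the lowest median of the 11 cell lists. Of 17 listed neutrophil genes 13 were measured: 8 fell and 1 rose (69.2% called), 6 of the falls in both arms, with a median of -1.30 (-1.52 and -0.96 within slides 3 and 4). Under normexp the median was -0.53, again with 8 falls and 1 rise, and 8 of the 17 were well above background on all 16 arrays. In a whole organ, fewer cells of a type and less RNA per cell cannot be told apart. The summed signal of the list, in units of the array's 75th percentile, was 3.26 to 4.38 in control vehicle, 2.77 to 5.22 in genistein vehicle, 0.829 to 1.76 in control dexamethasone and 0.727 to 1.31 in genistein dexamethasone arrays. No vehicle array was as low as the highest dexamethasone array. S100a9, a calcium-binding protein abundant in neutrophils, lay at 0.08 to 1.57 (median 1.34) and at -3.30 to -0.13 (median -1.92), and fell by 2.88 (SE 0.40, adjusted p = 0.000213). Its lowest vehicle array and its highest dexamethasone array were 0.08 and -0.13. Csf3r, the receptor for granulocyte growth factor, fell by 1.30 (SE 0.15), and Fpr1, a sensor of bacterial peptides, fell by 1.79 (SE 0.18). Cxcr2, the receptor for Cxcl5, was above background on 8 of 8 vehicle arrays and 1 of 8 after dexamethasone. Its average fall was called (adjusted p = 0.00762). It was 2.81-fold with 1 dexamethasone group raised to the dimmest measurable signals. The other dexamethasone group kept readings below background, so this fold is not a lower bound either. The collagenase gene Mmp8 was the rise, at 1.02 (SE 0.25). The part of these cells in the fall of Il1b and of the neutrophil chemokines was not tested.

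Macrophage and dendritic genes moved in both directions. Of 21 measured, 6 fell and 2 rose (38.1% called), and the median of -0.43 became -0.73 within slide 3 and 0.27 within slide 4. Cd163, the haemoglobin scavenger receptor that glucocorticoids induce in macrophages, lay at -5.65 to -3.49 (median -4.52) and at -3.05 to -0.45 (median -2.32), and rose by 2.65 (SE 0.36). Clec4n, a lectin receptor for fungi, lay at -2.84 to -1.66 (median -1.94) and at -5.12 to -3.64 (median -4.16), and fell by 2.13 (SE 0.19, -1.37 under normexp). These genes of the same cell class moved apart without overlap between the groups. Fcgr1, an antibody receptor, fell by 1.70 (SE 0.15) and Cx3cr1, the fractalkine receptor, by 1.73 (SE 0.19) in both arms. Without genistein vehicle arrays 3 and 4 the list had 4 falls and 2 rises, and without control dexamethasone arrays 2 and 3 it had 9 falls and 1 rise. Both omissions were chosen after seeing the data.

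Lymphocyte, endothelial and adipocyte lists had medians farther from 0 in controls than after genistein, a difference that was not tested. Of 24 measured lymphocyte genes 10 fell and 2 rose (50% called), 1 in each direction in both arms, with medians of -0.92 in controls and -0.16 after genistein. Ptprc, the pan-leukocyte antigen CD45, fell by 0.69 (SE 0.08) and Il7r, the interleukin 7 receptor, which glucocorticoids are known to induce in T cells, rose by 0.99 (SE 0.20), both in both arms. Of 16 endothelial genes 7 fell and none rose (43.8% called), with medians of -0.61 and -0.12, and 1 fell in both arms: Plvap, a protein of vessel pores, at -1.14 (SE 0.14). Of 18 adipocyte genes 4 rose on average, none in both arms (22.2% called, against 23% of all genes). With arrays scaled to their median 7 rose. The adipocyte medians were 2.10 in controls and 0.05 after genistein. Lep, leptin, rose by 3.41 (SE 0.75), with vehicle arrays at -8.59 to -6.17 (median -6.89) and dexamethasone arrays at -7.54 to -0.71 (median -3.59), with wide overlap. It was above background on 4 of 8 vehicle and 7 of 8 dexamethasone arrays, and normexp gave 1.42, still called. The adipocyte summed signal was 71.5 on control dexamethasone array 1 and 350, 315 and 178 on arrays 2, 3 and 4 of that group, 40.6 to 65.9 in control vehicle, 57.7 to 147 in genistein vehicle and 64.8 to 157 in genistein dexamethasone arrays. Without control dexamethasone arrays 2 and 3, an omission chosen after seeing these values, 5057 genes were called on average and 690 in both arms, and 3 adipocyte genes rose. Glucocorticoid-induced genes then had 26 rises and 2 falls, chemokines 18 falls and no rise, and neutrophil genes 8 falls and 1 rise.

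**Figure D4:**
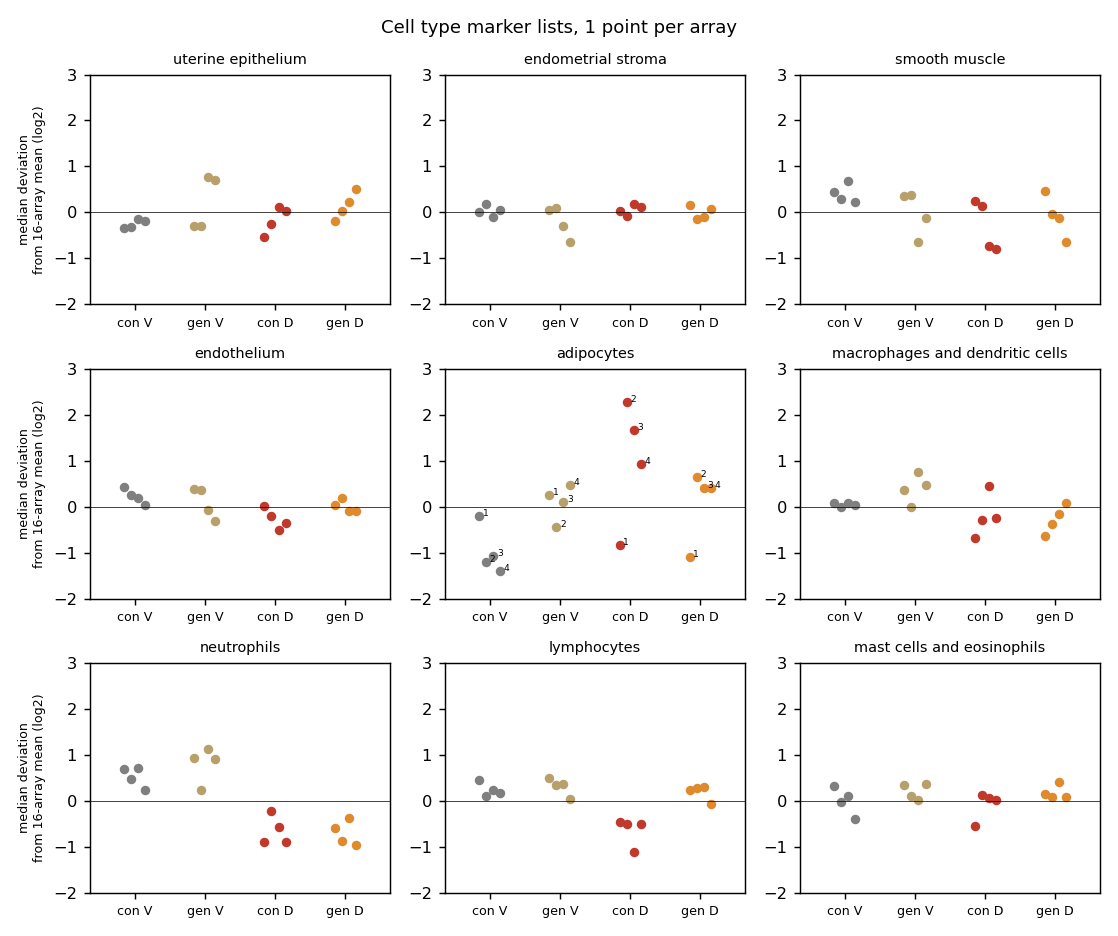
Median deviation of each cell type marker list from its mean over the 16 arrays, in log2 units, with 1 point per array (con and gen, neonatal control and genistein; V and D, vehicle and dexamethasone). Neutrophil markers are above 0 on all 8 vehicle and below 0 on all 8 dexamethasone arrays; adipocyte markers (numbers are replicates) are highest on control dexamethasone arrays 2 and 3.

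Epithelial markers showed no call among 18 on average, and Elf3 and Muc1, the members with the smallest p, gave 0.65 (SE 0.29) and -0.52 (SE 0.23). Genistein vehicle arrays 3 and 4 had epithelial medians of 0.78 and 0.71 against the 16-array mean. Without them, an omission added after seeing the data, 4 epithelial genes rose, 7001 genes were called on average and 1096 in both arms. Of 14 stromal genes 3 rose and 4 fell (50% called, against 23% of all genes), and of 14 smooth muscle genes 1 rose and 1 fell (14.3% called). The smooth muscle median was -0.45 on average, -0.73 in controls and -0.12 after genistein, and -0.14 and -1.01 within slides 3 and 4. Without genistein vehicle arrays 3 and 4 it was -0.67, with 6 falls and no rise. With arrays scaled to their median the stromal list had 5 rises and 2 falls. Ovary, oviduct and adrenal genes had 4 falls among 12 (33.3% called), with 6 of 15 listed above background on all arrays, and 1 rise and 1 fall under normexp. Red blood cell genes had no call among 5. Mast cell and eosinophil genes had 1 rise and 2 falls among 11 (27.3% called, against 23% of all genes). Under normexp they had 3 rises and 1 fall.

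Genes of implantation rose more often than they fell. Of 31 measured implantation and decidualization genes 12 rose and 3 fell (48.4% called), 6 of the rises in both arms, with a median of 0.18 (0.30 and 0.45 within slides 3 and 4). The list shares Fkbp5, Errfi1 and Cebpb with the glucocorticoid-induced list. Tcf23, a helix-loop-helix factor of decidualization, lay at -1.25 to 0.50 (median -0.23) on vehicle and 2.14 to 3.11 (median 2.76) on dexamethasone arrays, without overlap, and rose by 2.92 (SE 0.21, 3.59 and 2.09 within slides 3 and 4). The homeobox gene Hoxa11 lay at 3.18 to 4.57 (median 4.16) and 4.87 to 5.55 (median 5.17), also without overlap, and rose by 1.18 (SE 0.18). Within slides 3 and 4 Hoxa11 rose by 1.76 and 0.63. It read 3.23 and 3.18 on genistein vehicle arrays 3 and 4, against 4.17 and 4.32 on arrays 1 and 2. Hoxa10, its neighbour in uterine patterning, rose by 0.98 on average (SE 0.18, 1.68 and 0.38 within slides 3 and 4). Hand2, a progesterone-regulated stromal factor, rose by 0.76 (SE 0.17) on average. Fst, which binds activin, rose by 1.92 (SE 0.28), with overlapping groups, while the activin subunit gene Inhba fell by 1.68 (SE 0.22), with vehicle arrays at -0.77 to 0.80 (median -0.18) and dexamethasone arrays at -2.11 to -1.59 (median -1.70) without overlap. The falls were Wnt4, needed for decidualization, at -1.23 (SE 0.15), Stat3, the transducer of LIF, at -1.02 (SE 0.20) and the deiodinase gene Dio2 at -1.35 (SE 0.23), all on average and not in both arms. Of 25 activin and TGF-beta genes 4 rose and 4 fell (32% called, against 23% of all genes). Inhba was the member called in both arms.

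The estrogen receptor gene was called narrowly, and the progesterone receptor gene did not pass. Esr1, estrogen receptor alpha, lay at 2.02 to 3.82 (median 3.06) and at 1.29 to 3.08 (median 2.37), with wide overlap, and its fall of 0.62 (SE 0.21, adjusted p = 0.0484) was lost in 19 of 34 alternatives, although a dimmer probe gave -0.80 (adjusted p = 0.00053). Pgr, the progesterone receptor, lay at -1.80 to -0.60 (median -1.66) and -2.27 to -0.89 (median -1.69), and its change of -0.10 (95% interval -0.57 to 0.37, adjusted p = 0.793) did not pass. Of 25 measured genes of steroid receptors and metabolism 5 rose and 6 fell (44% called), or 5 and 2 with arrays scaled to their median, Hsd11b2 alone in both arms. Of 30 estrogen-responsive uterine genes 7 rose and 3 fell (33.3% called), with Igf1, Cdkn1a and the chloride channel regulator Clca3a1 (1.07, SE 0.16) in both arms. Ltf, lactoferrin, was read on 15 arrays, since 1 spot carried an outlier flag, and its change of 0.98 in controls and -0.55 after genistein was not tested.

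Wnt ligands and antagonists fell more often than they rose, and matrix genes moved in both directions. Of 27 measured Wnt ligands and antagonists 10 fell and 3 rose (48.1% called), 5 of the falls in both arms, with a median of -0.31 (-0.34 and -0.80 within slides 3 and 4). Wnt2, a stromal ligand, lay at -1.58 to 0.11 (median -0.45) and at -3.02 to -2.01 (median -2.52), without overlap, and fell by 1.99 (SE 0.21, adjusted p = 2.11e-05). The antagonist gene Dkk2 lay at 0.54 to 1.59 (median 1.09) and at -1.73 to -0.11 (median -0.86), also without overlap, and fell by 1.91 (SE 0.22). The falls took in ligands and antagonists: the antagonist gene Sfrp4 fell by 1.41 (SE 0.12), the ligand gene Wnt16 by 1.14 (SE 0.16) and the amplifier gene Rspo1 by 1.10 (SE 0.10), each in both arms. Wnt2b was a rise, at 1.34 (SE 0.26, 0.41 under normexp), called on average. Of 27 measured matrix proteases and inhibitors 10 rose and 7 fell (63% called), with 3 rises and 4 falls in both arms. Mmp11, stromelysin 3, lay at 2.78 to 3.85 (median 3.31) and at 0.76 to 1.65 (median 1.17) and fell by 2.13 (SE 0.17). Timp1, a metalloprotease inhibitor, lay at 1.43 to 2.94 (median 2.27) and at -1.22 to 0.83 (median -0.58) and fell by 2.52 (SE 0.26). Both had separate groups. Serpina3n, an inhibitor of serine proteases, rose by 1.82 (SE 0.34) and the aggrecanase gene Adamts15 by 1.69 (SE 0.14). Among 24 collagens and small proteoglycans 6 fell and 2 rose (33.3% called), or 3 and 2 with arrays scaled to their median. Omd, osteomodulin, lay at -5.27 to -4.00 (median -4.60) on vehicle and at -1.85 to 0.39 (median -0.77) on dexamethasone arrays and rose by 3.77 (SE 0.22), whereas the related Lum, lumican, fell by 0.95 (SE 0.13), both in both arms.

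Cell cycle genes were seldom called. Of 31 measured 3 rose, none fell and none was called in both arms (9.68% called), with medians of 0.22 in controls and -0.30 after genistein and of -0.40 and 0.59 within slides 3 and 4. Inhibitors of cyclin-dependent kinases and apoptosis genes gave 8 rises and 3 falls among 26 (42.3% called), 5 of the rises in both arms. Cdkn1a, the kinase inhibitor p21, lay at -1.51 to -0.80 (median -1.18) under vehicle and -0.17 to 1.15 (median 0.61) under dexamethasone, and rose by 1.75 (SE 0.19). Bcl2l1, which protects from apoptosis, rose by 1.57 (SE 0.12), with 2.02 in controls and 1.11 after genistein, and its other probes gave 1.17 and 0.88. Both genes' groups were separate. Pmaip1, a death-promoting BH3 gene, rose by 1.27 (SE 0.15) on average.

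Immediate early, MAP kinase feedback, stress and vessel genes held rises and falls. Of 24 immediate early genes 6 rose and 4 fell (41.7% called; 6 and 2 with arrays scaled to their median), with Fosl2 at 0.70 and Egr2 at -1.19 (SE 0.17) in both arms. A dimmer Fosl2 probe gave 0.20 and did not pass. Of 22 MAP kinase phosphatases and feedback genes 5 rose and 5 fell (45.5% called; 6 and 3 under that scaling), with Errfi1 and Dusp1 as shared rises and Rgs3, a brake on G protein signalling, as the shared fall at -1.19, with 4 other probes between -0.75 and -0.28. Dusp10 fell by 1.03 (SE 0.24), unlike Dusp1. Of 23 heat shock and unfolded protein genes 7 rose and 1 fell (34.8% called), Bag3 at 0.73 (SE 0.11) and Atf4 at 0.73 (SE 0.13) in both arms. Of 23 angiogenic genes 4 rose and 8 fell (52.2% called): Adm, the vasodilator adrenomedullin, rose by 1.41 (SE 0.17) and Aplnr, the apelin receptor of vessels, fell by 1.56 (SE 0.19), both in both arms.

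Further falls shared by both arms belonged to no list. Prnd, which encodes a prion-like protein, lay at -0.71 to 0.87 (median 0.12) on vehicle arrays and at -4.19 to -1.90 (median -3.54) on dexamethasone arrays, and fell by 3.37 (SE 0.31, adjusted p = 7.63e-06). Spon2, a matrix protein gene, lay at 2.21 to 3.00 (median 2.52) and -0.93 to 0.82 (median -0.13), and fell by 2.70 (SE 0.15, 6.48-fold). Neither gene had overlapping groups, which was a condition of the rule that named them. Lrrc55, a potassium channel subunit gene, fell by 3.50 (SE 0.36), and Apol7c, of the apolipoprotein L family, fell by 2.64 (SE 0.20). Gpr84, a receptor for medium-chain fatty acids on myeloid cells, was above background on 5 of 8 vehicle and 0 of 8 dexamethasone arrays. Its fall was at least 1.86-fold (adjusted p = 0.0001). Under normexp the changes of Lrrc55 and Apol7c were -2.11 and -1.70, both called.

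Some averaged calls were made in neither arm, and some average unequal arms. Of the 1195 genes called on average and in neither arm, the 4 named genes with the smallest adjusted p were Fbn2, a microfibril gene (-0.96, SE 0.21, -0.50 under normexp), the disulfide isomerase gene Agr2 (-0.74, SE 0.16), D16Ertd472e (0.67, SE 0.15) and Trim12c (-0.72, SE 0.16). Their changes in controls and after genistein were of like size, at -0.85 and -1.08 for Fbn2 and -0.64 and -0.83 for Agr2. Among genes called on average, the smallest interaction p-values belonged to Kcnn1, Mypn, Nipal4 and Ercc2. Kcnn1, a potassium channel gene, gave -0.18 in controls and 0.73 after genistein, and Ercc2, a DNA repair helicase gene, -1.08 and -0.02. For each of the 4 the interaction adjusted p was 0.162, so the difference between the arms did not pass.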

How the data were processed

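Whole-uterus RNA (400 ng) was hybridised to 16 one-colour Agilent mouse arrays, 1 per sample. The deposited intensity values are processed spot intensities, background-subtracted by Agilent Feature Extraction (version 9.5, per the submitters' processing notes; the file headers name another version), and the deposited value table was identical to them. Here log2 intensity was centred on each array's 75th percentile, 1639 of 45018 spots were left out as controls, outlier-flagged spots were set missing, repeated spots were averaged, and probes missing on any array (807) were dropped. Of 41174 probes, the 32598 that 4 or more of the 16 arrays read well above background were kept, and the brightest stood for each gene. Symbols came through RefSeq accessions of GRCm38.p6 (28223 of 29245 RefSeq probes matched). limma 3.58.1 (R 4.3.3) fitted 4 group means, so neonatal treatment was in the model, and p-values were Benjamini-Hochberg adjusted over 24651 genes and unnamed targets. For genes below background on every array of a group, that group was raised to the dimmest measurable signal of each array. The fold of a fall is then a lower bound only where no dexamethasone array below background was left unraised. The fit was checked on simulated data. The comparison and the 36 gene lists were chosen with earlier results of these data known. Named genes are the 12 largest rises and 12 largest falls of the core without overlap between arrays, up to 4 called members per list (2 with the smallest p where none was called), 4 genes called in neither arm, 4 with the smallest interaction p, and a few receptor, target and steroid genes. Other list members named in the text were chosen after their values were seen. Alternatives covered scaling, background, filter, probes, slide, replicate number, weights, variance trend, fold, threshold and arrays left out. Array number limits the precision.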

Additional observations from a re-analysis of the deposited data

Results flagged for a closer look

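Of 584 groups of 4 arrays examined for 146 genes, 23 held an array whose gap to its nearest neighbour exceeded Dixon's limit of 0.829 of the group's range, and chance gives about 1 in 20. Values are scaled log2 signals of single arrays. Neutrophil and inflammatory genes come first. S100a9, the neutrophil gene, read 0.082 in genistein vehicle replicate 2, and the other 3 arrays of its group read 1.46 to 1.57. Fpr2, a formyl peptide receptor gene, read -4.57 in control vehicle replicate 2, and the other 3 arrays of its group read -3.85 to -3.74. Fpr2 read -5.36 in control dexamethasone replicate 4, and the other 3 arrays of its group read -6.36 to -6.27. Tnf, tumour necrosis factor, read -6.26 in genistein dexamethasone replicate 4, and the other 3 arrays of its group read -4.97 to -4.90. H2-DMb1, an MHC class II loading gene, read 0.94 in control dexamethasone replicate 2, and the other 3 arrays of its group read 0.33 to 0.38. Ifi47, an interferon-induced GTPase, read 2.44 in genistein vehicle replicate 3, and the other 3 arrays of its group read 1.18 to 1.37. Cpa3, a mast cell protease, read 0.45 in control dexamethasone replicate 3, and the other 3 arrays of its group read -0.14 to -0.09.

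Among targets and growth genes the single arrays were as follows. Tsc22d3, the leucine zipper target, read 5.54 in control dexamethasone replicate 2, and the other 3 arrays of its group read 4.97 to 5.00. Rhob, the GTPase gene, read -0.45 in genistein vehicle replicate 4, and the other 3 arrays of its group read -0.03 to 0.01. Glul, glutamine synthetase, read 4.70 in genistein dexamethasone replicate 3, and the other 3 arrays of its group read 4.46 to 4.48. Igf1, the growth factor gene, read 3.49 in genistein dexamethasone replicate 4, and the other 3 arrays of its group read 3.04 to 3.11. Atf4, a stress response factor, read 1.41 in genistein dexamethasone replicate 4, and the other 3 arrays of its group read 1.53 to 1.55. Thbs1, thrombospondin, read -2.46 in control dexamethasone replicate 2, and the other 3 arrays of its group read -1.50 to -1.40. Thbs1 read -0.17 in genistein dexamethasone replicate 2, and the other 3 arrays of its group read -1.26 to -1.14. Fst, follistatin, read -4.55 in control vehicle replicate 4, and the other 3 arrays of its group read -4.03 to -3.94.

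The remaining arrays concerned fat, steroid, vessel and other genes. Agr2, a disulfide isomerase gene, read -2.25 in control vehicle replicate 2, and the other 3 arrays of its group read -1.74 to -1.64. Ccne2, a cyclin gene, read -3.72 in genistein vehicle replicate 3, and the other 3 arrays of its group read -4.70 to -4.59. Cidec, a lipid droplet gene, read -0.20 in genistein dexamethasone replicate 1, and the other 3 arrays of its group read 2.96 to 3.35. Cyp11a1, the side-chain cleavage enzyme of steroid synthesis, read -7.58 in genistein dexamethasone replicate 2, and the other 3 arrays of its group read -6.27 to -6.14. Foxl2, a forkhead factor, read -4.50 in genistein dexamethasone replicate 4, and the other 3 arrays of its group read -3.24 to -3.09. Lep, leptin, read -6.23 in control vehicle replicate 1, and the other 3 arrays of its group read -8.59 to -8.25. Plvap, the vessel pore gene, read -0.61 in control dexamethasone replicate 2, and the other 3 arrays of its group read -1.26 to -1.18. Trim12c, a tripartite motif gene, read -3.07 in genistein dexamethasone replicate 2, and the other 3 arrays of its group read -2.27 to -2.16.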

How the results depend on the processing

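The counts of 5666 genes on average and 856 in both arms stayed within 1.5 times under most alternatives; the exceptions follow. With slide as a fixed block 556 genes were called in both arms. Array weights gave 9788 on average, 2843 in both arms and 60 averaged calls with differing arms, against 0. A minimum of 1.5-fold (limma treat) gave 368 and 99, and an adjusted p below 0.01 gave 2649 and 332. Leaving out 1 array at a time gave 4334 to 5835 on average, 547 to 807 in both arms and 0 to 1 with differing arms; without genistein dexamethasone replicate 3 the values were 547 and 1. The arrays of slides 3 and 4 alone with slide as a block, added after seeing the data, gave 15 and 0, with fewer samples by construction. The cause of the other shifts was not tested. With a replicate block 6015 and 905 were called. Deviations of same-numbered arrays of different groups correlated at -0.37 to 0.38 (24 pairs, median 0.03). Pairs of different groups sharing neither number nor slide gave -0.31 to 0.39 (median -0.06). With ranges this wide, the values cannot decide whether the numbers pair the samples. The additive model called 4924 on average and gives no count for the arms, and the deposited value table, being identical, was not run. Of the values of single genes and list medians, 319 lost a call, 4 gained one, 40 medians moved by more than the spread between arrays, and 1 called gene turned sign: Cyp19a1, aromatase, at 0.014 under normexp. The other 5804 kept their side of the threshold or, for medians, moved by less than that spread, which does not mean that all kept their sign. Medians near 0 changed sign in 11 of 34 alternatives for insulin and IGF and for estrogen-responsive genes, 8 for steroid and epithelial genes, 7 for cell cycle and red blood cell genes and 6 for clock genes, and the uncalled Pgr ranged from -0.21 to 0.11. Genes near background are limited by signal. The normexp alternative started from median spot and background signals and was quantile normalized. Its values therefore mix background correction with another scaling. Quantile normalization alone gave 48.8% rises among averaged calls, against 41.9%. The added offset of normexp also shrinks changes of dim genes by construction. Limits common to all results are 1 dose, 1 time, a mixed tissue and 4 arrays per group.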

Other observations

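Several gene families had members called mainly in one direction, and they were chosen after their values were seen, so no test is given. Over all genes 9.63% rose and 13.4% fell on average, and 3.47% were called in both arms. Families were grouped by the start of the gene symbol, so a family may hold genes of other function. All 8 measured guanylate-binding protein genes, which include Gbp2, Gbp3 and Gbp5 of the interferon-stimulated list, fell on average, 6 of them in both arms, with a median of -1.28, and 6 of 7 apolipoprotein L genes fell, 4 in both arms (Apol7c, Apol11b, Apol7a and Apol10b), with a median of -1.78. Of 9 stefin and cystatin-domain genes, inhibitors of lysosomal proteases carried by myeloid cells, 8 fell, 4 in both arms, with a median of -1.61. Members of these families are near copies of each other, so a probe may read more than 1 of them. Of 6 receptors for hydroxycarboxylic and fatty acids 4 fell, with Gpr84, Hcar2 and Hcar1 in both arms.

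Both measured CTLA-2 genes, Ctla2a and Ctla2b, protease inhibitors of decidua and T cells, rose in both arms with a median of 2.32, and they too share sequence. Of 45 ribosome biogenesis genes 18 rose and none fell on average, with Utp4, Wdr43, Ddx21, Mphosph10 and Rrs1 in both arms and a median of 0.23. Rises were more frequent among bright genes, with 675 of 4930 in the brightest class and 129 of 4931 in the dimmest. The family was not compared with genes of like brightness.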
